A study of Rattus norvegicus with 3 samples.

Results

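The genes described here were a set of 10 transcription factors of mesenchymal and forkhead families: FOXC1, FOXC2, FOXD1, FOXP1, FOXP2, TBX18, TWIST1, OSR1, PRRX1 and RUNX1. They were taken by symbol from the gene table, and were picked with the group values of this same comparison already in view, so the levels below are a description and no test was made. Of the 10, 9 had an entry among the 12771 entries of the table, and TBX18, a T-box factor of pericytes and of the mesenchyme of heart and ureter, had none.

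RNA came from the acellular fraction of spinal cord, the supernatant left after tissue was digested with a cold active protease and the cells were pelleted. The animals, Sprague Dawley rats, were females aged 3 months, and all received a laminectomy at the ninth thoracic level. In the SCI group the exposed cord was also contused, and in the No-SCI group it was not. Tissue rostral to that level was taken 24 h after surgery. The controls were therefore operated animals and not intact ones. Ribosomal RNA was depleted before total RNA libraries were made, and the labels list 2 No-SCI libraries and 1 SCI library, while the study's methods describe a pair of animals in each condition. The table holds a single value per gene and group, so neither the spread between animals nor the depth behind a value can be read from it, and every difference below lacks a replicate check.

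Levels are FPKM, fragment counts scaled by transcript length and by library size, and can be compared between genes because they are scaled by length. The decimals of the values showed that a constant of 1 had been added to the FPKM before deposit. The lowest value was 1 in both groups, with 18 No-SCI and 37 SCI values at exactly 1. The share of values printed with 6 or more decimals was 87.7% between 1 and 2 FPKM and 36.5% between 2 and 2.5 FPKM, a break at the place where an estimate of 6 significant digits plus 1 would put it. Ratios are therefore given as deposited and again with 1 subtracted from both values. A log2 ratio above 0 means a higher value in SCI.

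Forkhead factors carry a winged helix domain that binds DNA, and several of them pattern the mesoderm, the neural crest mesenchyme and the meninges. TWIST1, PRRX1, OSR1 and TBX18 belong to other families (basic helix-loop-helix, paired homeobox, zinc finger and T-box) and mark connective tissue progenitors in the embryo, fibroblasts or perivascular cells. RUNX1 binds DNA through a Runt domain with its partner CBFB and is best known from blood formation. In the spinal cord FOXP1 is known for setting the columnar identity of motor neurons, and FOXP2 is found in subsets of neurons.

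Promoter sequences were available from RefSeq for 8 of the 10 genes (assembly GRCr8, 250 bases before to 50 after the annotated transcription start). Of these, 4 are shown: those with the highest CpG ratios, Foxc1 and Twist1, and those of the pair with the highest SCI levels, Foxp1 and Osr1. They span the CpG ratios of the 8 but not the GC contents, which go down to 34.3% (Runx1). They lie at chr17:32844051-32844350 on the minus strand (Foxc1), chr6:56402059-56402358 on the plus strand (Twist1), chr4:133353231-133353530 on the minus strand (Foxp1) and chr6:38097401-38097700 on the plus strand (Osr1). Capitals mark matches, on either strand, to the E-box CANNTG, the forkhead core TGTTTAC, the RUNX core TGTGGT, the T-box element AGGTGTGA, the homeobox core TAATTA, the TATA box TATAAA, the SP box GGGCGG and the AP-1 sites TGACTCA or TGAGTCA.
Foxc1: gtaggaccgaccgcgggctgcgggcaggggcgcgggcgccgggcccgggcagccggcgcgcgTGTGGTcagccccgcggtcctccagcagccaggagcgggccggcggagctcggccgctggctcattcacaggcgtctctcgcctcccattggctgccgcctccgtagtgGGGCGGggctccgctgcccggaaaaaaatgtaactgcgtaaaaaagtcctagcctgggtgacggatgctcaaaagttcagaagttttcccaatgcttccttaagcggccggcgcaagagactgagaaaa
Twist1: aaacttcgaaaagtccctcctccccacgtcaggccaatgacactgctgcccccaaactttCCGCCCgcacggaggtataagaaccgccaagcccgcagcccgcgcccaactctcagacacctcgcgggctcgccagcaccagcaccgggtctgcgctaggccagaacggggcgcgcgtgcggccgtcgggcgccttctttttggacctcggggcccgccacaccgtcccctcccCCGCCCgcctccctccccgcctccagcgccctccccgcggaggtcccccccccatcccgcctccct
Foxp1: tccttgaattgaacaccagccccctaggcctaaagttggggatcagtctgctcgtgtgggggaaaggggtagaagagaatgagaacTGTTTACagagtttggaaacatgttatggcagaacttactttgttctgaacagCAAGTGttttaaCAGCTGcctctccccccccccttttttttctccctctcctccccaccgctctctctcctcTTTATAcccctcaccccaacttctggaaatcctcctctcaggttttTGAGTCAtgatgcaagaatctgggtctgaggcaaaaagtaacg
Osr1: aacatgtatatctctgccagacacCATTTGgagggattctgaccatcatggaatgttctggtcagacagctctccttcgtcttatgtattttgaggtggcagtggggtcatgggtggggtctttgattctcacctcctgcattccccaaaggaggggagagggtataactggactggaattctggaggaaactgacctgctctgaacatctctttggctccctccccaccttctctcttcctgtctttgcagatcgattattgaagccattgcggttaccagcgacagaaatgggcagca

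The Foxc1 promoter had a GC content of 66.7% and an observed to expected CpG ratio of 0.963, and that of Twist1 had 71.3% and 0.946, against medians of 51.7% and 0.392 over all 33469 promoters of the table. The windows of Foxp1 (48.3%, 0.175) and Osr1 (49.7%, 0.216) were below both medians. In both, a stretch rich in C and T that ends in AG, as introns do, lies at the annotated start, and an ATG follows it. These windows may therefore lie where an intron meets a coding exon, and not at the promoter in use. Their values cannot be set against those of Foxc1 and Twist1 as promoter values. Foxc1 held a RUNX core at position -188 and an SP box at -79 from the start, and Twist1 held SP boxes at -190 and -16. Foxp1 was the only one of the 8 with a match to the forkhead core (-164), the TATA box (-39, on the opposite strand) or an AP-1 site (8). It also held E-boxes at -111 and -99. The AP-1 match ends on the first base of the ATG in that window, so the Foxp1 matches need not be promoter elements. Osr1 held a single E-box at -226. Over the 8 promoters, an E-box was present in 5 (72.1% of all promoters), an SP box in 4 (33.1%), and the forkhead core (3.78%), RUNX core (17.3%), TATA box (14.2%) and AP-1 site (4.63%) in 1 each. The homeobox core (5.36%) and the T-box element (1.10%) were in none. No matches of different motifs overlapped within these 8 promoters. Such letters describe the window only, and binding was not measured.

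All 9 listed genes had a higher value in SCI than in No-SCI, and each differed by at least 2-fold, against 1016 of all 12771 entries (7.96%) that were at least 2-fold higher and 1539 (12.1%) that were at least 2-fold lower. At least 4-fold was reached by 6 of the 9, against 1.69% of all entries higher and 1.21% lower by that much. The median log2 ratio was 2.24 over the 9 genes and -0.12 over all entries, and the median level went from 1.42 FPKM in No-SCI to 9.47 FPKM in SCI, against 17.2 and 15.6 FPKM over all entries. Nothing is read from these counts, because the genes were chosen on this comparison. In bulk RNA such as this, more cells of a type and more RNA per cell, or here more RNA released from cells, cannot be told apart.

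Part of the pattern was fixed by which genes the table lists. In every entry the larger of the 2 values was at least 1.41 FPKM, so a gene below that in No-SCI could only be listed if it was higher in SCI. There were 181 entries of this kind, all 181 higher in SCI, 82 of them (45.3%) at least 2-fold and 22 (12.2%) at least 4-fold. FOXC1, FOXC2, FOXD1 and FOXP2 were among them, and their direction was thus set by the listing. The other 5, TWIST1 (narrowly), OSR1, FOXP1, PRRX1 and RUNX1, lay above that level in both groups and could have been listed in either direction. Of the genes outside the set that are named below, TWIST2, OSR2, FOXD2, ZIC2, HIC1 and CXCR2 were also under 1.41 FPKM in No-SCI. They too could only be listed as higher in SCI.

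**Figure D1:**
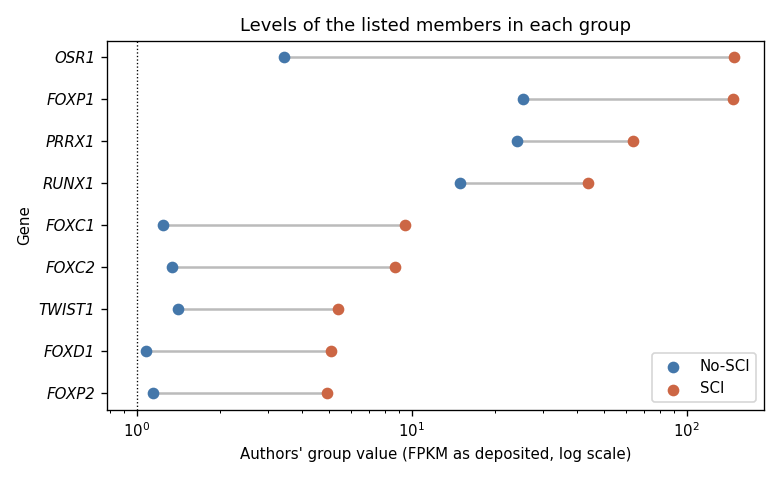
Authors' group values (FPKM as deposited, log scale) of the 9 listed genes in No-SCI (blue) and SCI (orange), each a single value per group with no error bar; the dotted line marks 1, the lowest value in the table. OSR1 runs from 3.43 to 148 FPKM, while 5 genes start below 2 FPKM.

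By level the genes fell into a low and a higher class. In No-SCI, FOXC1, FOXC2, FOXD1, FOXP2 and TWIST1 were below 2 FPKM, OSR1 was at 3.43 FPKM, and RUNX1, PRRX1 and FOXP1 were above 10 FPKM. In SCI none remained below 2 FPKM, and the order from the top was OSR1, FOXP1, PRRX1, RUNX1, FOXC1, FOXC2, TWIST1, FOXD1 and FOXP2. Without replicate values no neighbours in that order can be separated, and OSR1 and FOXP1 had a ratio of 1.01. The summed level of the 9 genes went from 74.1 to 436 FPKM, and OSR1 supplied 40.0% and FOXP1 33.6% of that gain.

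OSR1, the odd-skipped zinc finger factor of intermediate and lateral mesoderm and of connective tissue fibroblast progenitors, had the widest gap. Its value was 3.43 FPKM in No-SCI and 148 FPKM in SCI, a 43.2-fold difference (log2 ratio 5.43), or 60.6-fold with 1 subtracted. Only 1 entry of the table had a higher ratio as deposited, and OSR1 moved from percentile 13.8 of all No-SCI levels to percentile 89.4 of all SCI levels. Its SCI value carried more decimals than 1 estimate plus 1 would, as a sum of several transcript estimates does, so that more than 1 may have been added. With 2 subtracted, a choice made after the decimals were seen, the values were 1.43 and 146 FPKM and the ratio 102-fold. The No-SCI value did not look like a sum, so the 102-fold holds only if 2 had been added there too.

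PRRX1, the paired-related homeobox factor of limb and craniofacial mesenchyme and of fibroblasts, was already well expressed in No-SCI at 24.1 FPKM and stood at 63.7 FPKM in SCI. The difference was 2.64-fold (log2 ratio 1.40) and 2.71-fold with 1 subtracted, the smallest of the 9. It ranked 530 of the 12771 entries by its ratio. Among the entries of at least 10 FPKM in No-SCI, where the added constant matters little, 347 of 8066 (4.3%) were at least 2-fold higher and 13.5% at least 2-fold lower. PRRX1, RUNX1 and FOXP1 were in that class.

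TWIST1, a basic helix-loop-helix factor of cranial mesoderm and neural crest mesenchyme, was close to the floor in No-SCI. Its value was 1.42 FPKM there and 5.41 FPKM in SCI, 3.82-fold higher (log2 ratio 1.93), and with 1 subtracted 0.417 and 4.41 FPKM, 10.6-fold higher. It was the only gene of the low class whose No-SCI value did not itself require a higher SCI value for the gene to be listed. The margin was narrow, 1.42 against 1.41 FPKM, so little is read from its direction.

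FOXC1 and FOXC2 are close paralogs that act together in somites, vessels and the mesenchyme that forms the meninges and skull. FOXC1 was at 1.24 FPKM in No-SCI and 9.47 FPKM in SCI (7.63-fold, log2 ratio 2.93). FOXC2 was at 1.35 and 8.68 FPKM (6.44-fold, log2 ratio 2.69). The pair had similar levels in each group. With 1 subtracted, FOXC1 was at 0.242 and 8.47 FPKM (35.1-fold) and FOXC2 at 0.347 and 7.68 FPKM (22.1-fold). The ratio of FOXC1 to FOXC2 was then 0.696 in No-SCI and 1.10 in SCI. Both No-SCI levels were close to 0 with unknown numbers of fragments, so both folds and the ratio of 0.696 are poorly fixed. No change in the balance of the pair is read from them.

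FOXD1, a forkhead factor of stromal progenitors that give rise to pericytes and interstitial fibroblasts in the kidney, had the lowest No-SCI value of the set. It was at 1.08 FPKM in No-SCI and 5.08 FPKM in SCI (4.71-fold, log2 ratio 2.24). With 1 subtracted the values were 0.0790 and 4.08 FPKM and the ratio 51.7-fold, and it ranked 161 by the deposited ratio and 10 by the other. That second ratio rests on a No-SCI level close to 0 whose number of fragments is unknown, so its size is poorly fixed.

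FOXP1 and FOXP2 are repressors of the FOXP group, which pair with each other through a zipper region. FOXP1 was at 25.4 FPKM in No-SCI and 147 FPKM in SCI, 5.78-fold higher (log2 ratio 2.53), and moved from percentile 59.3 to percentile 89.3 of all levels. Subtraction of 1 left this nearly as it was (5.98-fold), and subtraction of 2, since both of its values looked like sums of estimates, gave 6.19-fold. FOXP2 was much lower, at 1.15 and 4.91 FPKM (4.29-fold, log2 ratio 2.10). With 1 subtracted FOXP2 was at 0.147 and 3.91 FPKM (26.7-fold). The level of FOXP1 was then 167 times that of FOXP2 in No-SCI and 37.3 times in SCI. The 26.7 and the 167 rest on a FOXP2 level close to 0 whose number of fragments is unknown, so their sizes are poorly fixed. No change in the balance of FOXP1 and FOXP2 is read from them. Against PRRX1, which matched FOXP1 in No-SCI (a ratio of 1.06), FOXP1 stood 2.31 times as high in SCI.

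RUNX1, the Runt domain factor required for the emergence of blood stem cells and also present in microglia and in some sensory neurons, was at 14.9 FPKM in No-SCI and 43.8 FPKM in SCI. The difference was 2.93-fold (log2 ratio 1.55), 3.07-fold with 1 subtracted and 3.23-fold with 2 subtracted, its No-SCI value looking like a sum. It moved from percentile 46.7 to percentile 72.5 of all levels. CBFB, the subunit that Runt factors bind DNA with, was at 123 and 112 FPKM (log2 ratio -0.14).

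**Figure D2:**
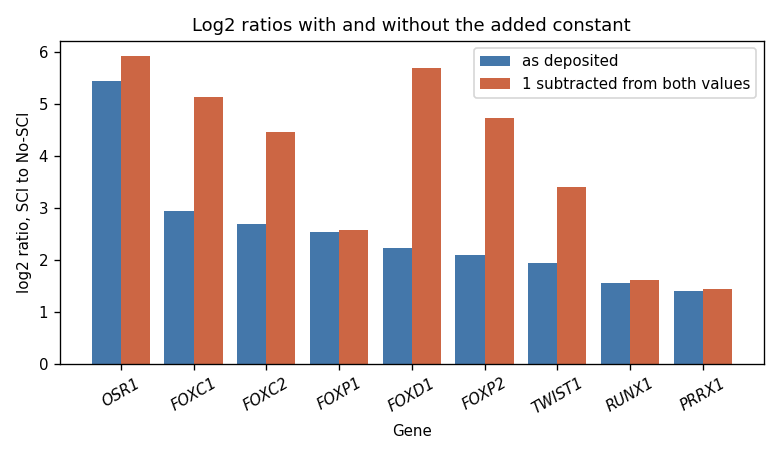
Log2 ratio of SCI to No-SCI for each of the 9 listed genes, as deposited (blue bars) and with 1 subtracted from both values (orange bars); bars start at 0 and have no error, as each group has a single value. The bars of FOXP1, PRRX1 and RUNX1 differ little, while FOXD1 goes from 2.24 to 5.69.

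The order of the genes by ratio thus depended on the constant. The 5 genes below 2 FPKM summed to 1.23 FPKM in No-SCI and 28.6 FPKM in SCI once 1 was subtracted from each. On that scale 6 of the 9 genes, OSR1 and the 5 below 2 FPKM in No-SCI, were at least 10-fold higher, against 1 as deposited. The lowest of the 6, TWIST1 (10.6-fold), ranked 119 by this ratio, and 99.06% of the 12716 entries had a smaller one. The median log2 ratio of the 9 was 4.47, against -0.13 over the 12716 entries with both values above 1. Low levels gave wide ratios in general: of the 684 such entries below 2 FPKM in No-SCI, 51.6% were at least 2-fold higher and 29.1% at least 4-fold higher after the subtraction, with 12.3% and 5.56% lower by those folds. Over all 12716 the shares were 10.4% and 3.33% higher, 16.2% and 3.21% lower. As deposited, 192 of 713 entries below 2 FPKM in No-SCI (26.9%) were at least 2-fold higher, with a median log2 ratio of 0.48. There were 0 at least 2-fold lower, because the floor of 1 allows no such fall from below 2 FPKM.

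**Figure D3:**
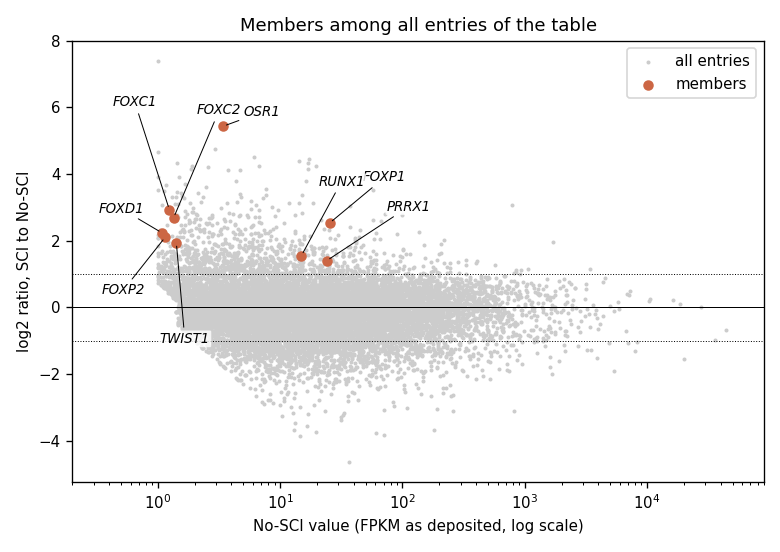
Log2 ratio of SCI to No-SCI against the No-SCI value (FPKM as deposited, log scale) for all 12771 entries (grey) and the 9 listed genes (orange, named); dotted lines mark 2-fold. All 9 lie above the upper line, and the empty corner at the lower left is where both values would fall below 1.41 FPKM.

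The families of these genes were read through fuller lists, which were drawn up with earlier results of these data known. Among 44 forkhead genes 21 had an entry, 8 were at least 2-fold higher in SCI and 0 at least 2-fold lower. Of the 8, 5 were genes of the set. The other 3 were FOXS1, a relative of the FOXC genes found in pericytes, at 2.71 and 17.4 FPKM (log2 ratio 2.68), FOXP4, the third broadly expressed FOXP gene, at 2.79 and 12.8 FPKM (2.20), and FOXO3, an effector of insulin and growth factor signalling, at 25.1 and 59.6 FPKM (1.24). Without the set, the 16 remaining forkhead genes had a median log2 ratio of 0.05 as deposited, with 8 above 0 and 8 below. Subtraction of 1 left 14 of them with a ratio, 6 above 0 and 8 below, because 2 genes higher in SCI were at the floor of 1 in No-SCI. The median of the 14 was -0.19, and with those 2 kept as the highest it was 0.05. FOXN3, the most abundant, was at 298 and 327 FPKM. FOXP3, the regulatory T cell factor, singled out after its values were seen as the last of the FOXP genes, was at 8.81 and 6.62 FPKM. FOXD2, 1 of the 2 at the floor, was listed at 1 in No-SCI and at 1.86 FPKM in SCI, and FOXF1, FOXF2, FOXD3 and FOXD4 had no entry.

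Of the T-box list 4 of 17 genes had an entry. TBX3 was at 1.88 and 8.42 FPKM (log2 ratio 2.16) and TBX15, the closest listed relative of TBX18, at 1.49 and 3.29 FPKM (1.14). MGA, which joins the MAX network, was at 24.5 and 14.3 FPKM, and TBX4, a hindlimb and lung mesenchyme factor, at 7.44 and 3.10 FPKM (-1.26). Both directions were therefore present around the missing TBX18. In the list of RUNX genes and cofactors, 9 of 10 had an entry, 2 were at least 2-fold higher (RUNX1 and the corepressor TLE1, at 9.63 and 26.6 FPKM) and 1 lower (TLE4, at 21.8 and 10.3 FPKM). RUNX2, the bone factor, was at 6.62 and 13.2 FPKM, 1.99-fold higher, TLE3 was at 42.1 and 33.4 FPKM, and RUNX3 had no entry.

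Around TWIST1, 11 of 15 Twist, E-protein and Id genes had an entry, 6 were at least 2-fold higher and 0 lower, with a median log2 ratio of 1.12. TWIST2, its paralog in dermal mesenchyme, was at 1.07 and 5.12 FPKM (log2 ratio 2.26) and MSC (musculin) at 1.66 and 10.8 FPKM (2.70). The dimer partners TCF12 (33.5 and 85.3 FPKM) and TCF3 (7.63 and 16.6 FPKM) were higher, whereas TCF4 was at 1191 and 1113 FPKM. ID1, an inhibitor of such dimers, was at 90.3 and 415 FPKM (2.20), and ID3 at 152 and 303 FPKM, 1.99-fold higher. The SNAI and ZEB repressors split. SNAI1 (4.85 and 22.4 FPKM, log2 ratio 2.21) and SNAI2 (2.01 and 4.05 FPKM, 1.01) were at least 2-fold higher, while ZEB1 (1924 and 1245 FPKM, -0.63) and ZEB2 (152 and 80.2 FPKM, -0.92) were lower by less than 2-fold.

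Around PRRX1 and OSR1, 20 of 33 mesenchymal homeobox and zinc finger genes had an entry, 11 were at least 2-fold higher and 0 lower, with a median log2 ratio of 1.08 (0.98 for the 18 outside the set). PRRX2, the paralog of PRRX1, was at 5.78 and 44.6 FPKM (log2 ratio 2.95), a wider gap than that of PRRX1 itself. OSR2, the paralog of OSR1, was at 1.29 and 2.44 FPKM (0.92) and stayed far below it in SCI. NR2F2, an orphan receptor of venous and mesenchymal cells, was at 14.1 and 124 FPKM (3.13). Others at least 2-fold higher included BNC2 (15.4 and 39.2 FPKM), ZIC2, GLI1, HIC1, ZIC1 and ZIC5 with log2 ratios from 1.02 to 1.59. The lower end of the list was at a log2 ratio of -0.80.

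**Figure D4:**
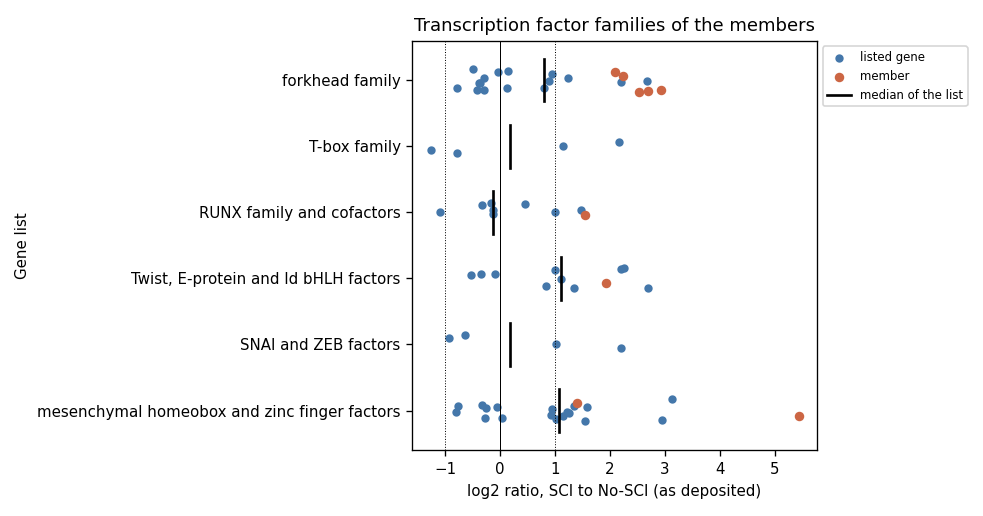
Log2 ratio of SCI to No-SCI (as deposited) for each listed gene of 6 transcription factor lists, with the genes of the set in orange, other genes in blue and the median of each list as a black bar; dotted lines mark 2-fold. The Twist and the homeobox and zinc finger lists have medians of 1.12 and 1.08, the RUNX list -0.13, and points are spread vertically only for legibility.

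Marker genes of cell types that can hold these factors were read in the same 2 values, since the acellular fraction has no cell types of its own. The fibroblast and meningeal list was the one that stood highest: 39 of 44 genes had an entry, 25 were at least 2-fold higher and 2 lower, the median log2 ratio was 1.49, and the summed level was 1843 FPKM in No-SCI and 10012 FPKM in SCI. S100A6, a calcium binding protein, supplied the largest share (782 and 6512 FPKM), and IGFBP6 (2.93 and 78.6 FPKM, log2 ratio 4.74), CRABP2 (17.3 and 382 FPKM, 4.46) and ISLR (6.78 and 128 FPKM, 4.24) had the highest ratios. Its lower end was SLC13A3 (-1.86), THY1 (-1.13) and ALDH1A1 (-0.83). Of classical fibroblast genes, picked after their values were seen, DCN was at 15.1 and 156 FPKM, COL1A1 at 1.87 and 5.25 FPKM and PDGFRA at 21.1 FPKM in SCI with a log2 ratio of 0.70. The part of this list's cells in the levels of OSR1, PRRX1, TWIST1, FOXC1, FOXC2 and FOXD1 was not tested.

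The vascular lists had medians nearer to 0 (0.02 for mural and 0.39 for endothelial genes). Of 13 listed mural genes 0 were at least 2-fold higher and 1 lower (ABCC9, log2 ratio -1.35), with sums of 482 and 606 FPKM and PDGFRB at 1.70 and 2.95 FPKM. Of 13 listed endothelial genes 5 were at least 2-fold higher, led by SOX18 (2.47) and CDH5 (1.61), with sums of 116 and 182 FPKM, and PECAM1, TEK, TIE1 and ROBO4 had no entry. For RUNX1, the microglia and macrophage list had all 20 genes listed, 5 at least 2-fold higher, among them CD14 (1.75) and LYZ2 (1.61), and 3 lower, among them CX3CR1 (-1.25) and CSF1R (-1.17), with sums of 1604 and 2214 FPKM. Other blood cell markers had 11 of 21 listed, 3 higher (S100A9, S100A8 and CXCR2) and 1 lower, with sums of 96.0 and 176 FPKM. PTPRC, the marker shared by white blood cells, was at 10.4 and 5.45 FPKM. The part of these cells in the level of RUNX1 was not tested.

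For FOXP1 and FOXP2, which neurons also express, the neuron list had 18 of 20 genes listed. Of these, 0 were at least 2-fold higher and 5 lower, led by SYN1 (log2 ratio -2.22). The median log2 ratio was -0.60, with 2 genes above 0 and 16 below. The sums were 2361 and 2021 FPKM, and GAP43, at 1275 and 1406 FPKM, supplied the largest share of both. Of the motor neuron list 5 of 17 genes had an entry, and CHAT, SLC5A7, MNX1, ISL1 and ISL2, which define these cells, had none. Of the 5, 1 was at least 2-fold higher, ALDH1A2 (4.40 and 61.1 FPKM), which is also on the fibroblast list, and 1 was lower, ESRRG, an orphan receptor (7.15 and 1.79 FPKM, log2 ratio -2.00). The part of neurons in the FOXP1 and FOXP2 values was not tested.

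The cord itself was present in the RNA, with summed oligodendrocyte markers at 90428 and 49087 FPKM and astrocyte markers at 25737 and 21415 FPKM, although MBP, GFAP and AQP4 had no entry. The oligodendrocyte list had a median log2 ratio of -1.32 (0 of 16 at least 2-fold higher, 9 lower), and that of astrocytes -1.31 (0 of 11 higher, 7 lower). Of 7 listed ependymal markers 1 was higher (NES, a progenitor filament, at 89.0 and 217 FPKM) and 2 lower. Skeletal muscle genes were lower in SCI in 10 of 12 by at least 2-fold and in 0 higher, with sums of 444 and 50.6 FPKM and myoglobin (MB) at 36.5 and 1.47 FPKM. The myosin genes MYH1 and MYH2 had identical values, and those of MYH4 less 1 were lower by a factor of 2.0 in both groups, so that the 3 may share an estimate. Counted once they left 9 of 10 lower, sums of 439 and 48.3 FPKM, and a median log2 ratio of -2.73 in place of -2.00. Muscle, which also lies next to the cord, thus differed in the opposite direction from the fibroblast genes. Whether the amount of meninges, muscle or cord in each sample had a part in the values of the set was not tested.

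**Figure D5:**
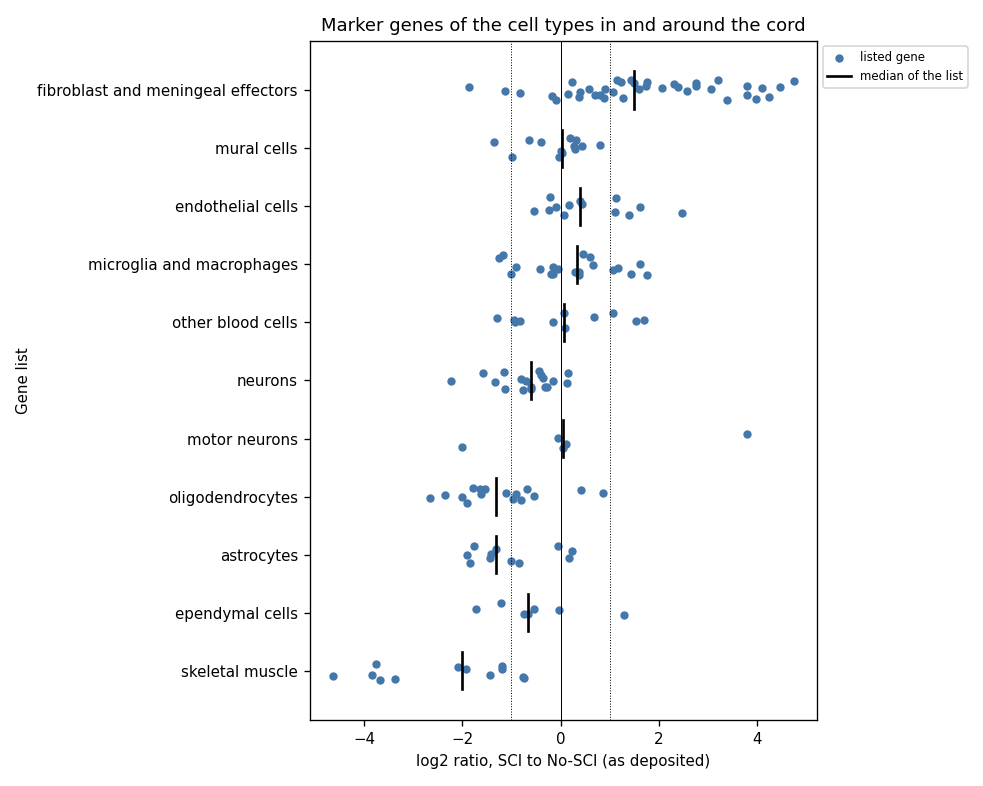
Log2 ratio of SCI to No-SCI (as deposited) for each listed marker gene of 11 cell type lists (blue), with the median of each list as a black bar; dotted lines mark 2-fold. The fibroblast and meningeal list has a median of 1.49, the skeletal muscle list -2.00, and points are spread vertically only for legibility.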

How the data were processed

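RNA of the acellular fraction was sequenced from 3 labelled libraries (2 No-SCI, 1 SCI). The authors downsampled reads to the smallest library, aligned them with STAR 2.5.4b to rn6 and estimated FPKM per gene and group with Cuffdiff with upper quartile normalization (versions from the submitters' processing notes, which list Cuffdiff 1.3.0). The deposited table holds 1 FPKM value per group, and 0 value columns were left unassigned. Its further columns hold the authors' own fold changes, p-values and q-values and were not used. The members and gene lists were chosen with earlier results of these data known.

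Ratios of the 2 values were computed in Python 3.11.15 (numpy 2.4.6, pandas 2.3.3, matplotlib 3.10.9), with no pseudocount beyond the constant of 1 already in the values, and a fold of 2 was used for counts. There were no replicate values, hence no test, SD or interval, and the depth is unknown. Steps were tested on simulated data. Of 13 symbols listed 2 times none was a member. Genes were named by rule, and all members were named. In transcription factor lists the rule took those past 2-fold, the 3 most abundant and direct paralogs. In cell type lists it took the 3 most abundant and the 3 highest and 3 lowest ratios, from which examples are given. The exceptions were FOXP3, DCN, COL1A1, PDGFRA and the MYH genes, named after their values were seen. A gene that the rule would name is not reported here. Motifs and CpG ratios came from RefSeq promoters of GRCr8, whose coordinates are not those of rn6. Protein sequences were not used here. Alternatives were pseudocounts of 1 and 0.1, subtraction of 1 or 2, 3 rescalings, a mean of at least 5 FPKM, summed repeated symbols, genes at the floor kept, shared myosin values counted once and folds of 1.5 and 4.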

Additional observations from a re-analysis of the deposited data

How the results depend on the processing

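Over 69 planned recomputations of the log2 ratios of the 9 genes, none reversed and none came below 2-fold higher. Of these recomputations 9 moved by more than 1.5-fold, each on adding or subtracting a constant. No setting could have reversed a gene, so the lack of reversals shows nothing. Adding or subtracting a constant keeps the direction of a ratio, and every rescaling raised the log2 ratios. The mean filter and summed symbols left the values of the genes they kept unchanged. Only the added pseudocounts lowered the ratios of these genes, so only they could have brought a gene below 2-fold. The median of the 9 was 1.55 with a pseudocount of 1 and 4.47 with 1 subtracted, against 2.24. The forkhead median was 0.21 with 1 subtracted, over 19 of 21 genes, and 0.94 with the 2 genes at the floor in No-SCI kept as the highest, so the lower value came from their loss. Counts of forkhead genes outside the set that were higher became 5 with the median of all entries centred at 0 and 6 at a fold of 1.5, where 1 forkhead gene was lower, with or without the set. All entries numbered 2159 higher and 3361 lower at a fold of 1.5, and 216 and 154 at a fold of 4. Centring the median shifted every log2 ratio by 0.12 and turned the split of 1016 higher and 1539 lower entries (39.8% higher) into 1219 and 1225 (49.9%); matching upper quartiles shifted them by 0.10. Of 448 recomputed counts and medians of the other lists 57 moved, and with a mean of at least 5 FPKM the medians of the T-box (0.18) and SNAI and ZEB (0.19) lists became -0.78 and -0.63. FOXD1, FOXP2 and TWIST1 were below that mean and had no value there. Keeping those 2 genes, counting the shared myosin values once and subtracting 2 for OSR1, FOXP1 and RUNX1 were chosen after seeing the data, and the last gave OSR1 a log2 ratio of 6.68. No paired analysis was possible because the table holds 1 value per group, and for the same reason no replicate could be left out. Depth and the spread between animals limit every value here and could not be read from the table.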
